A study of Homo sapiens with 12 samples.

Results

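TNF, LTA and LTB are the 3 genes of the tumour necrosis factor and lymphotoxin cluster on human chromosome 6. They were picked out by symbol from the 18950 genes of an RNA sequencing table, because earlier results of these data showed TNF moving in opposite directions in the cell lines DU145 and PC3. All 3 were in the table, and 2 of them, TNF and LTB, lay above the expression minimum used for testing (a level of at least 1 CPM, the count scaled to a common library total, in at least 3 of 12 libraries, met by 12527 genes). Their differences between GFP sorts are therefore described with their errors and without a test. The comparison of DU145 with PC3 did not choose them and was tested, except for LTB, which met that minimum only through DU145.

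DU145 and PC3 are established prostate cancer lines, derived from a brain and a bone metastasis. The labels give no genotype, transgene, clone or agent beyond the line and the sort. Each line was grown in DMEM with 10% serum and sorted on its green fluorescence (green fluorescent protein, GFP), which the labels use as the readout of Wnt/β-catenin signaling, without naming the reporter construct. The brightest 10% of cells (GFP+ in the labels, called GFP high here) stand for active signaling and the dimmest 10% (GFP-, called GFP low) for inactive signaling. There were 3 libraries of total RNA in each of the 4 groups. The labels do not tell whether libraries of 1 group are separate cultures, and a p-value here speaks only for the spread among these libraries, which could be technical.

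TNF is a trimeric cytokine made as a membrane protein and released by proteolytic shedding. It binds TNFR1 (gene TNFRSF1A), found on most cells, and TNFR2 (TNFRSF1B), found mainly on leukocytes and endothelium, and its best known output is canonical NF-κB signaling. LTA encodes lymphotoxin α, which is secreted as a homotrimer that binds the TNF receptors, or is held at the membrane by lymphotoxin β, the product of LTB. The membrane heterotrimer binds the lymphotoxin β receptor (LTBR), whose best known output is the non-canonical NF-κB pathway through NIK (MAP3K14), NFKB2 and RELB. All 3 ligands are best known from lymphocytes and myeloid cells.

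The genes lie side by side within 10469 bases (GENCODE 29, build GRCh38). LTA (ENSG00000226979) runs from 31572054 to 31574324 on the plus strand of chromosome 6, TNF (ENSG00000232810) from 31575567 to 31578336 on the plus strand, and LTB (ENSG00000227507) from 31580525 to 31582522 on the minus strand. The gap between LTA and TNF is 1242 bases and that between TNF and LTB, whose 3′ ends face each other, is 2188 bases. None of the 3 shares exon bases with another annotated gene, and their estimated counts were whole numbers in all 12 libraries.

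The 250 bases before RefSeq's start sites of TNF and LTB are shown because these neighbours had unlike levels in the same libraries. For LTA, 30 bases around its motif match are shown. The sequences are RefSeq's (GRCh38.p14), written 5′ to 3′ on the strand of the gene, and capitals mark motif matches. They come from chr6:31575315-31575564 (plus strand, TNF), chr6:31582426-31582675 (minus strand, LTB) and chr6:31572176-31572205 (plus strand, LTA). RefSeq's LTB start, 31582425, is also the start of a protein-coding transcript in GENCODE 29, but a noncoding transcript of LTB begins 97 bases further upstream, so 97 of the printed LTB bases lie within the gene span given above. The LTA bases lie within the gene span too.
TNF: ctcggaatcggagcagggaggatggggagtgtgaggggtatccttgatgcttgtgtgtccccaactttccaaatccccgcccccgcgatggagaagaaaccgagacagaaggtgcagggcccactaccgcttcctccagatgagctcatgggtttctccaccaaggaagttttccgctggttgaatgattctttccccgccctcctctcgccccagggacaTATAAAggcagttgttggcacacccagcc
LTB: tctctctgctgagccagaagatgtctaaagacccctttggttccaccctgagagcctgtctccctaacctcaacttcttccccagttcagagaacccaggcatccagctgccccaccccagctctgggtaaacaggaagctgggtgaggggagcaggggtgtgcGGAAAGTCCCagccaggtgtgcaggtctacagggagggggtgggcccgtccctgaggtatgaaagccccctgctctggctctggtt
LTA: ctaagccctgGGGGCTTCCCcgggccccag

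A set of 3 motifs was searched on both strands of RefSeq's 300-base windows (250 bases before to 50 after a start), which matched all 3 genes. They were the TATA box core TATAAA, the consensus κB site bound by NF-κB, and CTTTGA, the core of the site bound by the TCF and LEF partners of β-catenin. The TNF window held TATAAA beginning at position -29 from the start and no match to the κB consensus or CTTTGA. In the LTB window the κB consensus matched on the opposite strand, at position -86 from the coding start, which is inside the first exon of the noncoding transcript, and neither TATAAA nor CTTTGA was found. RefSeq lists 2 windows for LTB, which differ by 1 base, and 2 for LTA. The LTA window used has its start at 31572289, 235 bases inside the gene span and 6 bases from a protein-coding start in GENCODE. It held a κB match at -103, TATAAA at -31 and CTTTGA at -137 from that start, and all 3 lie in the first exon of the longer LTA transcript. No matches overlapped. Of 34943 such windows, 5.90% held the κB consensus, 11.6% TATAAA and 12.9% CTTTGA. These are matches of letters and not sites of measured binding.

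The libraries held from 13453614 (DU145 GFP high replicate 3) to 21528810 estimated counts (PC3 GFP high replicate 3), so a gene with 0 counts in the shallowest library could still be present at up to 0.223 CPM (3 counts, counting error only). PC3 GFP low replicates 2 and 3 stood apart from the other PC3 libraries, with 3495 and 3491 genes at 0 against 4577 to 4819. Because both lines come from carcinomas, leukocyte and epithelial markers were checked. Of 16 fixed, 12 were in the table, none was at 0 in all 12 libraries, and their summed level was 1.51 to 2.41 CPM in DU145 GFP high, 0.839 to 2.61 in DU145 GFP low, 0.303 to 0.430 in PC3 GFP high and 0.478 to 1.17 in PC3 GFP low. The defining leukocyte genes PTPRC (CD45), CD2 and MS4A1 (CD20) had 3, 2 and 1 counts over all 12 libraries. Others of the list had more, with 113 counts for ITGAM, 62 for CD14, 28 for FCER1G and 22 for CD79A. Only ITGAM was above the minimum, at 1.11 and 1.22 CPM in DU145 GFP high and low. In PC3 GFP high and low it was at 0.0895 and 0.144 CPM, from 4 and 6 counts. ITGAM was thus higher in DU145 (log2 3.56 ± 0.52, SE), the direction of TNF and LTB. It met the minimum only through DU145, which fixed that direction beforehand, so no test is given. Of the epithelial markers, the simple keratins KRT8 and KRT18 were at 1753 and 1375 CPM in DU145 GFP high and 18.1 and 369 CPM in PC3 GFP high, while EPCAM (9 counts over 12 libraries), CDH1 (34), KRT19 (6), KRT5 (2) and the prostate gene KLK3 (2) were near absent. CDH1, the gene of E-cadherin, and EPCAM are usually expressed in DU145, so on these 2 markers the DU145 libraries went against what is known of the line, and the cause was not tested.

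TNF was lower in GFP high than in GFP low cells of DU145, and higher in GFP high cells of PC3. In DU145 GFP high its level was 44.0, 40.2 and 45 CPM in replicates 1 to 3 (43.1 ± 2.6, SD, n = 3), from 621, 666 and 580 counts. In DU145 GFP low it was 111, 118 and 127 CPM (119 ± 8, n = 3), from 1838, 1831 and 1931 counts. All 3 dim libraries lay above all 3 bright ones, and the nearest pair was 2.47-fold apart. The fitted log2 difference was -1.47 ± 0.12 (SE), or 2.76-fold lower in GFP high. In bulk RNA, fewer expressing cells and less RNA per cell cannot be told apart.

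PC3 showed the opposite order. TNF was at 14.9, 18.2 and 14.9 CPM in PC3 GFP high (16.0 ± 1.9, n = 3; 323, 338 and 343 counts). In PC3 GFP low it was at 6.2, 7.45 and 6.0 CPM (6.55 ± 0.78, n = 3; 106, 133 and 100 counts). The sorts did not overlap and the nearest libraries were 2.0-fold apart. The log2 difference was 1.29 ± 0.12 (SE), or 2.44-fold higher in GFP high, and the DU145 difference minus the PC3 difference was -2.75 ± 0.17. Without PC3 GFP low replicates 2 and 3 the PC3 difference was 1.36.

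LTB had the opposite order to TNF in DU145 and was close to absent in PC3. DU145 GFP high held 93.0, 127 and 145 CPM (122 ± 26, n = 3; 1314, 2104 and 1868 counts). DU145 GFP low held 35, 37.5 and 49.3 CPM (40.6 ± 7.7, n = 3; 577, 580 and 749 counts). The sorts did not overlap, with 1.89-fold between the nearest libraries. The log2 difference was 1.57 ± 0.37 (SE), or 2.98-fold higher in GFP high. Replicate 1 was the lowest bright library, and the spread within both DU145 groups was wider than that of TNF.

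In PC3, LTB had 3, 6 and 6 counts in GFP high and 3, 7 and 2 in GFP low, which gave 0.264 ± 0.095 and 0.257 ± 0.142 CPM (n = 3 each). The PC3 sorts overlapped, and the log2 difference was 0.11 ± 0.37 (SE). The DU145 difference minus the PC3 difference was 1.47 ± 0.52 on the log2 scale.

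LTA, the third gene of the cluster, was at the limit of detection. DU145 GFP high held 4, 4 and 4 counts and DU145 GFP low 3, 2 and 4, so the sorts overlapped, with a log2 difference of 0.52 ± 0.46 (SE, from the fit to all genes, since LTA lay below the minimum). All 6 PC3 libraries held 0 counts of LTA, and no fold between the PC3 sorts is given. Lymphotoxin β needs lymphotoxin α to form the membrane heterotrimer, 1 of the ligands of LTBR. In DU145 the LTB transcript was abundant while that of LTA was not.

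**Figure D1:**
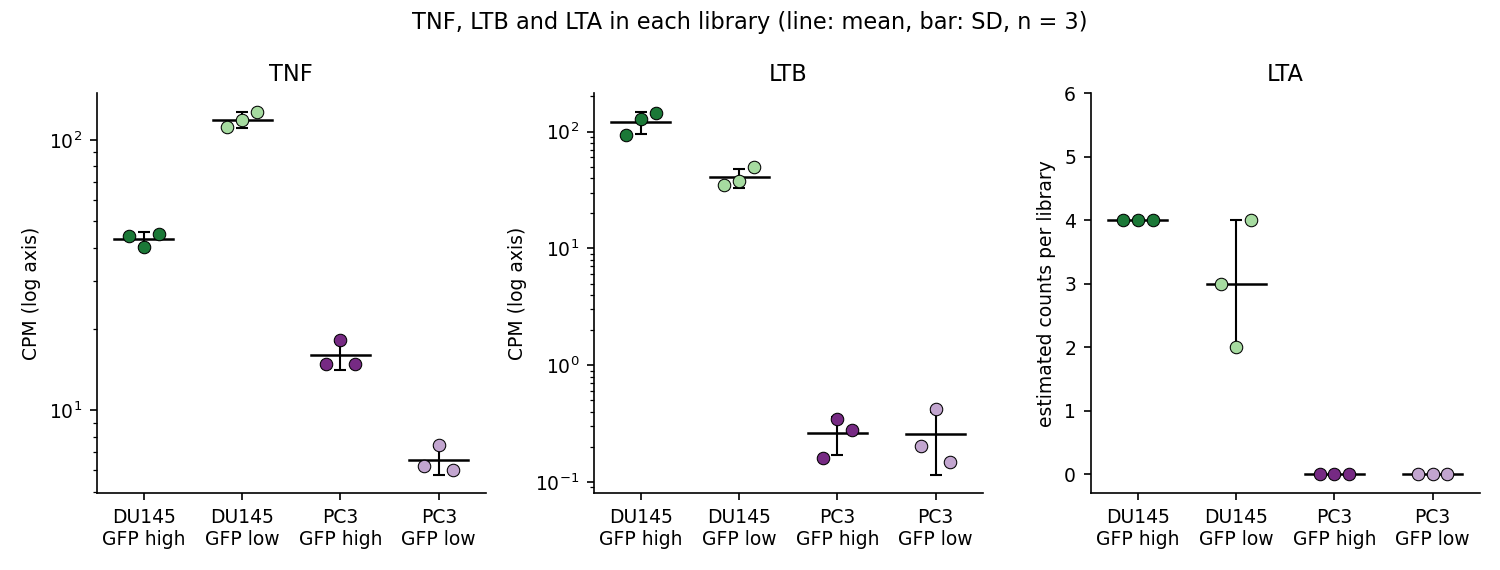
Levels of TNF and LTB (CPM, log axes) and estimated counts of LTA (linear axis) in each of the 12 libraries; points are libraries, lines are group means and bars are SD (n = 3). TNF is higher in GFP low in DU145 and in GFP high in PC3, LTB is higher in GFP high in DU145 and below 0.42 CPM in PC3, and LTA has 0 counts in PC3.

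Sort groups did not overlap for 40.5% of the 12527 genes in DU145 (17.9% higher and 22.6% lower in GFP high) and for 30.4% in PC3 (14% higher and 16.4% lower), so separation of the sorts as for TNF and LTB was common among all genes. At an adjusted p under 0.05 (limma, Benjamini-Hochberg), 27.1% of genes differed between the DU145 sorts (13.1% higher and 13.9% lower in GFP high), 9.44% between the PC3 sorts (4.17% higher and 5.27% lower), and 15.9% in the DU145 difference minus the PC3 difference. The median log2 difference over all genes was -0.01 in DU145 and -0.02 in PC3.

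The GC content of transcripts moved with the DU145 sort. Across genes, which are not independent replicates, GC content and the log2 difference had a Spearman correlation of -0.63 in DU145 and -0.10 in PC3. The 763 genes within 1 point of the GC content of TNF (54.3%) had a median DU145 difference of -0.20, and the 498 within 1 point of LTB (63.4%) a median of -0.26. Once the GC and length trend was taken out of each library, the DU145 difference was -1.27 for TNF and 1.87 for LTB, and the PC3 difference of TNF was 1.39.

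Per length, the order of the 2 detected ligands differed between the DU145 sorts. TNF was at 25.7 ± 1.5 CPM per kilobase of exon in DU145 GFP high and LTB at 79.2 ± 17.2, so that LTB exceeded TNF by 3.09 ± 0.68-fold (n = 3). In DU145 GFP low, TNF was at 71.0 ± 4.7 and LTB at 26.5 ± 5.0 CPM per kilobase, and TNF exceeded LTB by 2.72 ± 0.31-fold (2.36 to 2.92 in the 3 libraries). LTB was thus the higher of the pair in all 3 bright DU145 libraries and TNF in all 3 dim ones. In PC3, TNF was at 9.54 ± 1.13 (GFP high) and 3.91 ± 0.47 (GFP low) CPM per kilobase, and LTB at 0.172 ± 0.062 and 0.168 ± 0.093. There TNF exceeded LTB by 60.2 ± 21.1-fold in GFP high and 27.0 ± 10.3-fold in GFP low, ratios that rest on 27 counts of LTB in all.

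Against the 18901 genes with an annotated length, TNF per kilobase was above 89.7% in DU145 GFP high, 96.1% in DU145 GFP low, 76.9% in PC3 GFP high and 62.1% in PC3 GFP low. LTB was above 97.2% and 88.9% of genes in the same DU145 groups and above 36.8% and 36.5% in the PC3 groups. LTA was above 33.8% in DU145 GFP high and 32.7% in DU145 GFP low. The level of TNF was therefore highest in DU145 GFP low, then DU145 GFP high, then PC3 GFP high and lowest in PC3 GFP low, with no overlap between neighbours in that order, while the order of LTB was DU145 GFP high, DU145 GFP low and then both PC3 groups together.

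**Figure D2:**
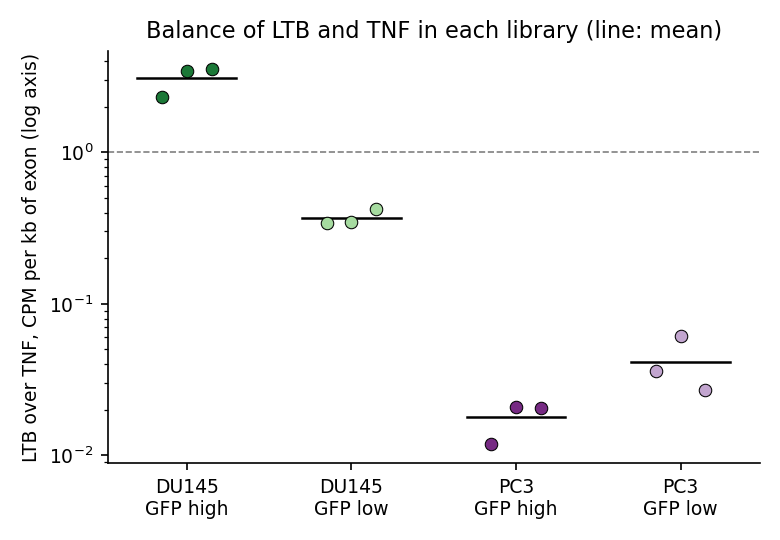
Ratio of LTB to TNF, both in CPM per kilobase of exon, in each of the 12 libraries (log axis); points are libraries and lines are group means. The ratio is above 1 (dashed line) in the 3 DU145 GFP high libraries and below it in the other 9, with means of 3.09 in DU145 GFP high and 0.371 in DU145 GFP low.

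All 3 genes were higher in DU145 than in PC3, a comparison that did not choose them. TNF was 7.02-fold higher in DU145 (log2 2.81 ± 0.08, SE, limma adjusted p = 4.01e-12), with the lowest DU145 library at 40.2 CPM and the highest PC3 library at 18.2. The gap was 2.69-fold between the GFP high groups and 18.2-fold between the GFP low groups. LTB was 286-fold higher (log2 8.16 ± 0.26, SE), or 461-fold between the GFP high and 158-fold between the GFP low groups. It met the minimum only through its DU145 libraries, as no PC3 library was above 0.418 CPM. A gene kept that way is bound to be higher in DU145, so the difference of LTB is described without a test. The folds of LTB rest on 27 counts in PC3 and on the 0.5 added to each count. LTA had 21 counts in 6 DU145 libraries and 0 in 6 PC3 libraries. Its DU145 rate of 0.220 CPM (exact Poisson 95% interval 0.136 to 0.336, counting error only) was, by its point estimate, at least 8.06-fold higher than the 0.0273 CPM that 3 counts over the PC3 group would give, and the lower end of its interval 4.99-fold higher. In the fit to all genes, where 30.1% were higher in DU145, limma gave LTA an adjusted p of 5.73e-07, which depends on the 0.5 counts that stand in for 0 in every PC3 library.

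An exact two-sided permutation test of 6 against 6 libraries gave p = 0.00216 for TNF and for LTA, the smallest it can give. These tests are read against a background in which 77.5% of the 12527 genes differed between the lines (38.3% higher and 39.2% lower in DU145), or 57% in the fit to all genes. The limma call of TNF held in all 22 alternatives.

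Of 17 fixed neighbours of the cluster on 6p21, 13 were above the minimum, and 15.4% of these passed between the DU145 sorts and 7.69% between the PC3 sorts, against 27.1% and 9.44% of all genes. By limma, only BAG6 and MICA passed in DU145, both lower in GFP high, and only HLA-B in PC3, higher in GFP high. In DU145 the median of the 13 was -0.12 and in PC3 -0.16 on the log2 scale. NFKBIL1, the nearest measured gene on the LTA side, differed by 0.04 ± 0.13 in DU145 (limma adjusted p = 0.817) and -0.19 ± 0.13 in PC3 (0.43). LST1, next to LTB, differed by 0.39 ± 0.63 in DU145 (limma adjusted p = 0.66) and -1.75 ± 0.63 in PC3 (0.105), and shares exon bases with NCR3.

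Those neighbour calls were small and unsteady. Over the fits that left out 1 library, the count of neighbours that fell in DU145 ranged from 0 (without GFP high replicate 1 or 2 or GFP low replicate 3) to 5 (without GFP high replicate 3). That of neighbours that rose in PC3 ranged from 0 (9 of the 12 libraries) to 2 (without DU145 GFP high replicate 3). HLA-B also shares exon bases with HLA-C in the annotation.

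**Figure D3:**
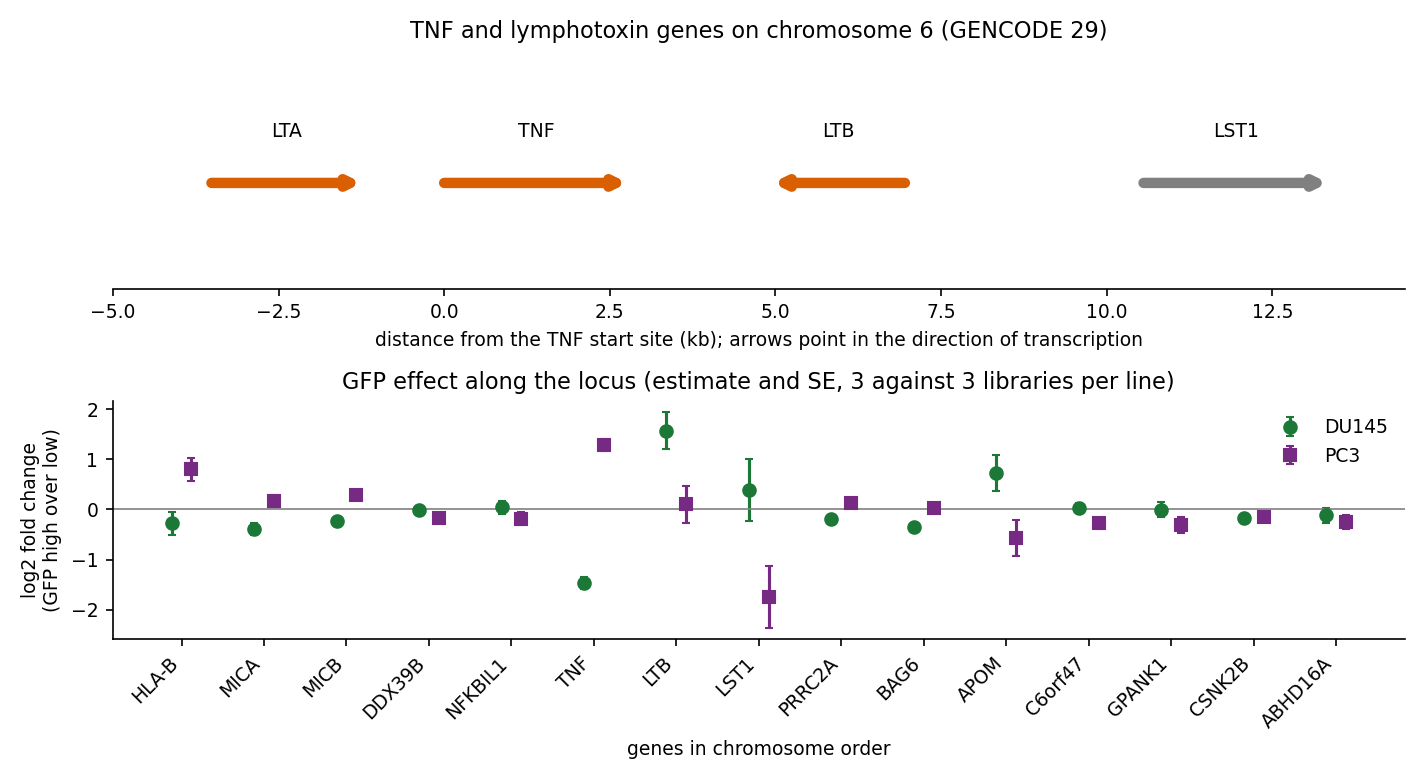
Top, the 3 genes and the neighbour LST1 by distance from the TNF start site (kb), with arrows in the direction of transcription; bottom, log2 difference between GFP high and low with its SE for DU145 (circles) and PC3 (squares), genes in chromosome order and 3 libraries per sort. TNF differs by -1.47 in DU145 and 1.29 in PC3, and LTB by 1.57 and 0.11. The cluster was chosen on the difference of TNF, so its distance from the neighbours is no test. LST1 differs by -1.75 in PC3, with a wide error.

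Between the sorts, the measured receptors of these ligands had smaller log2 differences than TNF, on whose difference the cluster was chosen. Of 4 fixed receptor genes, 3 were above the minimum, and by limma 1 passed in DU145, lower in GFP high, and 0 in PC3, where 1 had an unadjusted p under 0.05 and voom called 0. LTBR was at 53.8 and 51.2 CPM in DU145 GFP high and low and at 225 and 204 CPM in PC3 GFP high and low (log2 differences 0.07 ± 0.10, adjusted p = 0.608, and 0.15 ± 0.10, adjusted p = 0.395, limma). With the GC and length trend removed, both LTBR differences passed (0.28 and 0.21). Between the lines LTBR ran opposite to its ligand LTB, with a DU145 minus PC3 log2 difference of -2.03 ± 0.07 (limma adjusted p = 1.15e-11).

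TNFRSF1A, the receptor of TNF on most cells, was at 67.1 CPM in DU145 GFP high and 84.6 in DU145 GFP low, a fall of 0.34 ± 0.10 on the log2 scale (limma adjusted p = 0.0284). In PC3 it was at 86.6 and 105 CPM (-0.28 ± 0.10, adjusted p = 0.109). In DU145 the adjusted p rose to 0.131 or 0.0964 without GFP high replicate 1 or 2, to 0.101 or 0.0945 without GFP low replicate 1 or 3, and to 0.244 once the GC and length trend was taken out. TNFRSF1B, the second TNF receptor, had 12, 19, 0 and 1 counts in the bright and dim DU145 and the bright and dim PC3 groups. TNFRSF14, the receptor HVEM that binds lymphotoxin α and LIGHT, was at 2.44, 3.16, 2.33 and 1.89 CPM in the same groups and passed the test in neither line.

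Of 15 other ligands of the family, 13 were in the table and 7 above the minimum, of which 14.3% passed in each line against 27.1% of all genes in DU145 and 9.44% in PC3. In DU145 only TNFSF9 passed, lower in GFP high (4-1BB ligand, log2 -0.70 ± 0.13, limma adjusted p = 0.00426). In PC3 only TNFSF18 passed, higher in GFP high (GITR ligand, 1.25 ± 0.22, limma adjusted p = 0.00291). FASLG had 1 count and CD40LG 2 over all 12 libraries. Without DU145 GFP high replicate 3, the count of falls was 2 in each line.

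Of 25 other receptors of the family, 15 were above the minimum, with 2 higher and 1 lower in DU145 GFP high and 4 higher and 0 lower in PC3 GFP high. These were 20% of the 15 in DU145, against 27.1% of all genes, and 26.7% in PC3, against 9.44%. The death receptor FAS rose in DU145, from 1.40 CPM in GFP low to 4.03 in GFP high (log2 1.59 ± 0.27, limma adjusted p = 0.00227), and TNFRSF21 (DR6) fell by 0.53 ± 0.11 (adjusted p = 0.00771). TNFRSF11B, the decoy receptor osteoprotegerin, rose in PC3 from 0.495 to 4.12 CPM (3.10 ± 0.41, limma adjusted p = 0.000296). TNFRSF10B, the TRAIL receptor DR5, rose in PC3 from 91.5 to 121 CPM (0.40 ± 0.07, limma adjusted p = 0.00398). FAS and TNFRSF21 were lost when both DU145 GFP high replicates 1 and 2 were left out, TNFRSF10B and TNFSF18 when both PC3 GFP low replicates 2 and 3 were, the 2 rises in DU145 were 1 without any single DU145 library, and the PC3 count of 4 was 2 without any of GFP high replicates 1 and 2 and GFP low replicates 1 and 2.

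Shedding releases TNF from the membrane. ADAM17, the protease that sheds TNF, was at 31.5 and 26.5 CPM in DU145 GFP high and low (log2 0.25 ± 0.11, limma adjusted p = 0.113) and at 43.9 and 43.7 CPM in PC3. Among the 7 measured shedding genes, 2 were higher and 1 lower in DU145 GFP high by limma (42.9%, against 27.1% of all genes), and 0 passed in PC3, where 2 had an unadjusted p under 0.05 and voom called 0. The larger rise was that of the related protease ADAM10 (0.78 ± 0.16, limma adjusted p = 0.00706), whose adjusted p was 0.11 with the GC and length trend removed. Without DU145 GFP high replicate 1, 1 gene rose and 0 fell.

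TNF mRNA is held short-lived by proteins that bind AU-rich elements and by RNases. A fixed list of 13 genes of TNF mRNA control was used, and 13 of 13 were above the minimum. The list also held genes that do not shorten the life of this mRNA, namely ELAVL1 and the kinases MAPK14 and MAPKAPK2. In DU145, 2 rose and 4 fell (46.2% of the 13, against 27.1% of all genes), among them TIA1, a translational repressor of TNF mRNA (log2 0.83 ± 0.17, limma adjusted p = 0.00635), and the decay factor ZFP36L1 (-0.40 ± 0.08, adjusted p = 0.00632). The 4 falls were those of ZFP36L1, KHSRP, ELAVL1 and MAPKAPK2, so they were not all of destabilizing factors. In PC3, 2 rose and 0 fell (15.4%, against 9.44%), the larger being ZC3H12A (Regnase-1, an RNase that degrades cytokine mRNAs), from 18.4 to 33.7 CPM (0.88 ± 0.10, limma adjusted p = 0.000113). ZFP36 (tristetraprolin), the best known TNF mRNA decay factor, passed in neither line (-0.20 ± 0.14 in DU145 and -0.14 ± 0.14 in PC3). The TIA1 call was lost without both DU145 GFP high replicates 1 and 2 and that of ZFP36L1 under quantile normalization (adjusted p = 0.0547), and the 4 falls were 1 without DU145 GFP high replicate 1 or GFP low replicate 3 and 2 without GFP high replicate 2. The rises in DU145 were 1 without GFP high replicate 1 or 2 or GFP low replicate 1 or 3, and those in PC3 were 1 without GFP high replicate 1 or 3 or GFP low replicate 1 or 2.

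Genes of the complex that forms on TNFR1 moved in both directions in DU145. All 21 were measured above the minimum. In DU145 GFP high 5 were higher and 3 lower, and in PC3 GFP high 2 were higher and 1 lower, by limma. These were 38.1% of the 21 in DU145, against 27.1% of all genes, and 14.3% in PC3, against 9.44%. CYLD, a deubiquitinase that ends NF-κB signaling, rose in DU145 (log2 0.84 ± 0.13, limma adjusted p = 0.0013), as did TAB2, an adaptor of the TAK1 kinase (0.78 ± 0.14, adjusted p = 0.00303), and TNIP1, a partner of A20, fell from 488 to 344 CPM (-0.51 ± 0.11, adjusted p = 0.00898). TNFAIP3, which encodes the ubiquitin editor A20 and is a standard target of TNF, rose in PC3 from 11.4 to 22.7 CPM (0.995 ± 0.094, limma adjusted p = 2.0e-05), while SHARPIN, a subunit of the linear ubiquitin ligase, fell there (-0.61 ± 0.13, adjusted p = 0.0106). In DU145 the rises were 2 without any 1 of GFP high replicates 1 and 2 and GFP low replicates 1 and 3, 8 without PC3 GFP low replicate 2, and 0 without both GFP high replicates 1 and 2. The falls were 1 without GFP high replicate 2 or GFP low replicate 3, 6 without GFP high replicate 3, and 0 without both GFP high replicates 1 and 2, and CYLD did not pass once the GC and length trend was taken out (adjusted p = 0.109). The 2 rises in PC3 were 1 without any 1 of the GFP high replicates or GFP low replicate 1, and without both GFP low replicates 2 and 3 there was 1 rise and 0 falls.

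The 4 genes of the non-canonical NF-κB core, the pathway best known from LTBR, differed between the lines in how they went with the sort. All 4 had a lower GFP difference in DU145 than in PC3 by the test of that difference (limma adjusted p of at most 0.0194), as did 8.82% of all genes. For MAP3K14 this was lost without DU145 GFP low replicate 1 (adjusted p = 0.0513), with the GC and length trend removed (0.0541) and without both DU145 GFP high replicates 1 and 2 (0.104). In DU145, 0 rose and 2 fell (50%, against 27.1% of all genes). NFKB2 fell from 376 CPM in GFP low to 252 in GFP high (log2 -0.58 ± 0.10, limma adjusted p = 0.003) and MAP3K14 by 0.45 ± 0.10 (adjusted p = 0.00889).

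In PC3, 3 of the 4 rose and 0 fell (75%, against 9.44% of all genes). NFKB2 rose from 129 to 181 CPM (0.49 ± 0.10, limma adjusted p = 0.00801), RELB from 37.9 to 65.0 CPM (0.79 ± 0.14, adjusted p = 0.00228) and TRAF3, which restrains NIK, from 77.6 to 103 CPM (0.40 ± 0.07, adjusted p = 0.00294). The 2 DU145 falls were lost without both DU145 GFP high replicates 1 and 2, and that of MAP3K14 also with the GC and length trend removed (log2 -0.22, adjusted p = 0.0848). Without both PC3 GFP low replicates 2 and 3 only RELB remained of the PC3 rises. Of the 9 canonical core genes, 1 rose and 0 fell in DU145 (11.1%, against 27.1% of all genes). In PC3, 2 of these 9 rose and 0 fell (22.2%, against 9.44%). Both counts of rises were 0 without GFP high replicate 1 or 2 of the same line.

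Standard TNF-induced genes, 21 of 22 above the minimum, mostly had a higher difference between the sorts in PC3 than in DU145. NFKB2, RELB, NFKBIA, TNFAIP3 and BIRC3 are also in the NF-κB core or TNFR1 complex lists above, so these lists are not separate results. In PC3, 14 rose and 0 fell (66.7%, against 9.44% of all genes). The median log2 difference of the 21 there was 0.72, against -0.02 over all genes. In DU145, 2 rose and 6 fell (38.1%, against 27.1% of all genes), with a median of -0.03. The DU145 difference was below the PC3 difference by the test of that difference for 14 of the 21 and above it for 0, against 8.82% and 7.06% of all genes. The PC3 count ranged from 11 to 19 over all alternatives, and the 6 falls in DU145 were 3 without GFP high replicate 1 and 0 without both GFP high replicates 1 and 2. The 2 rises in DU145 were 0 without GFP low replicate 3 and 5 without PC3 GFP low replicate 2.

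The chemokine CCL2, which draws monocytes, rose in PC3 from 1.63 to 18.4 CPM (log2 3.50 ± 0.16, limma adjusted p = 1.44e-08) and fell in DU145 from 11.6 to 7.13 CPM (-0.70 ± 0.16, adjusted p = 0.0094). The neutrophil chemokines CXCL1 and CXCL8 rose in PC3, CXCL1 from 61.1 to 181 CPM (1.57 ± 0.10, adjusted p = 3.45e-07) and CXCL8 from 48.4 to 142 CPM (1.55 ± 0.11, adjusted p = 2.28e-06). In DU145, CXCL1 differed by 0.06 ± 0.09 (limma adjusted p = 0.651), and CXCL8 fell by 0.42 ± 0.11 (adjusted p = 0.0198), a call lost without GFP high replicate 1 (0.0787). IER3, an early response gene, fell in DU145 from 175 to 119 CPM (-0.56 ± 0.12, adjusted p = 0.00898). The 2 rises in DU145, against the direction of TNF there, were BIRC3 (0.84 ± 0.29, limma adjusted p = 0.0473) and CSF2. CSF2 rose alike in both lines, by 1.26 ± 0.29 in DU145 (limma adjusted p = 0.0105) and 1.25 ± 0.29 in PC3 (0.0147). These CSF2 calls were lost without DU145 GFP low replicate 3 and without PC3 GFP high replicate 1 or 2. IL6, named after its values were seen, was at 32.7 CPM in PC3 GFP high against 5.78 in PC3 GFP low (2.48 ± 0.33, adjusted p = 0.000288) and below 0.5 CPM in both DU145 groups. The DU145 calls of CCL2 and IER3 did not hold in the fit that lacked GFP high replicates 1 and 2.

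Of the epithelial markers, KRT8 and KRT18 were above the minimum. KRT8 fell in GFP high in DU145, from 2755 to 1753 CPM (log2 -0.66 ± 0.10, limma adjusted p = 0.00152), and in PC3, from 26.1 to 18.1 CPM (-0.53 ± 0.10, adjusted p = 0.0055), the same direction in both lines where TNF took opposite ones. KRT18 fell in DU145, from 1956 to 1375 CPM (-0.52 ± 0.12, limma adjusted p = 0.0121), a call lost without GFP high replicate 1 or 2 or GFP low replicate 3, and in PC3 it was at 409 CPM in GFP low and 369 in GFP high (-0.13 ± 0.12, adjusted p = 0.593). The summed level of the 8 fixed epithelial markers was 2881 to 3589 CPM in DU145 GFP high and 4421 to 4891 in DU145 GFP low. It was 373 to 410 in PC3 GFP high and 362 to 514 in PC3 GFP low. Their part in the results for TNF and LTB was not tested. The KRT8 calls were lost without both DU145 GFP high replicates 1 and 2 and without both PC3 GFP low replicates 2 and 3.

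**Figure D4:**
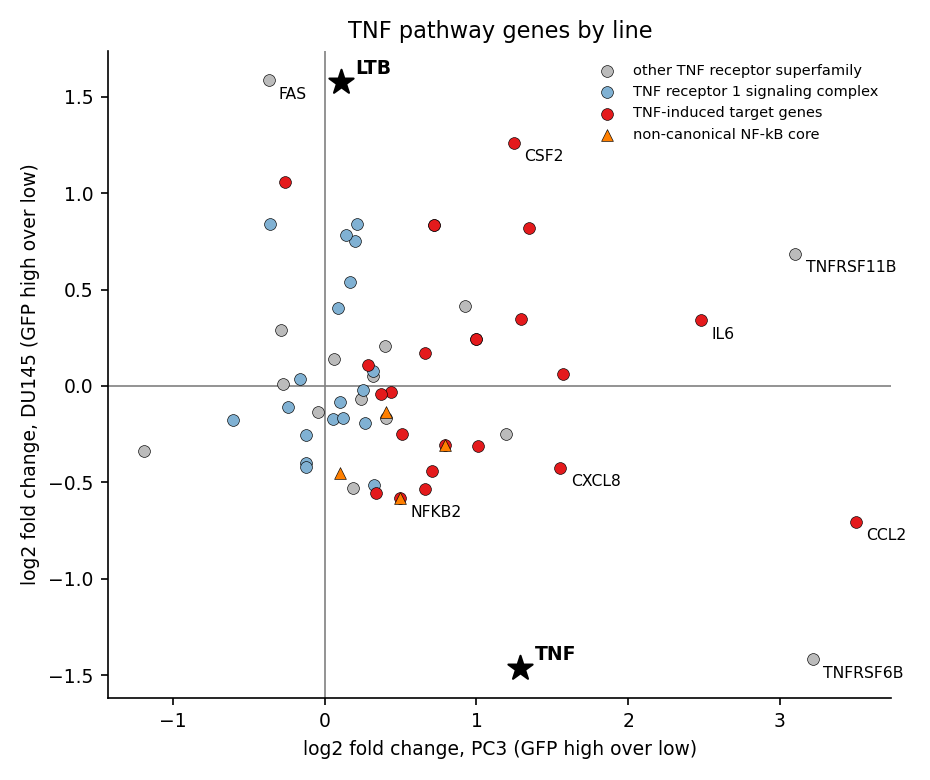
Log2 difference between GFP high and low in DU145 (vertical) against PC3 (horizontal) for TNF and LTB (stars) and the measured genes of 4 fixed lists; each point is a gene, from 3 libraries per sort and line. TNF lies at 1.29 and -1.47, and most TNF-induced genes lie to the right of 0 in PC3 (median 0.72) and on both sides of 0 in DU145 (median -0.03).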

How the data were processed

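RNA was sequenced from 12 libraries, 3 for each line and sort, and samples were grouped by their labels. STAR and DESeq2 are named in the submitters' processing notes with no version. The build and how reads were counted, by strand or not, were not given in the sources used here. The deposited values are log2 normalized counts per the labels. Their steps showed log2 CPM (count + 0.5 over a scaled total), which was undone to estimate counts. In the median library 86.9% of these came within 0.01 of a whole number. Printed CPM include that offset, except the summed marker levels, the pooled LTA rate with its interval, and the limits set from 3 counts. The LTA rate and the limits use totals of estimated counts that are not scaled. Log2 differences understate changes of low genes.

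The test was limma (version 3.58.1, R 4.3.3; trend; 4 group means; 8 residual degrees of freedom; two-sided; Benjamini-Hochberg at 0.05) over the 12527 genes that reached a log2 value of 0 in 3 or more libraries. "Rose" and "fell" mean GFP high against low past that threshold. Genes below it came from the fit to all 18950. Data simulated for these 12527 genes held altered genes of 1.5-, 2- and 4-fold. In DU145 36%, 69.0% and 87.0% of them were found, and in PC3 53.4%, 74.6% and 92.2%. False genes made up 3.91% of the simulated DU145 calls and 3.97% of those in PC3. Such shares hold for the simulated data only and give no false call rate for the real libraries. There the DU145 calls ran from 887 to 5582 when 1 library was left out. GC content also went with the real DU145 difference (Spearman -0.63). GC content, lengths and positions came from GENCODE 29 (18901 genes matched by identifier).

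The 3 members, 12 gene lists (162 entries) and the tests were chosen with earlier results of these data known. Named are all members and receptors, up to 4 genes per list and line with the smallest adjusted p past the threshold, not all of which are described, and the 5 genes most correlated with TNF and with LTB over the 12 libraries (mean log2 of at least 3 in 1 group). Some genes of these lists are not reported here. Alternatives were a fit with the replicate block, all genes or those reaching 4 in log2, equal medians, quantile normalization, voom on estimated counts, each line alone, leaving out each library or 2 pairs of libraries, and removing the GC and length trend (loess, span 0.4) with and without the block.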

Additional observations from a re-analysis of the deposited data

Results flagged for a closer look

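For 29 named pathway genes the difference between GFP high and low itself differed between the lines (limma interaction, adjusted p under 0.05). Of all 12527 genes, 15.9% passed this test. The 29 were named for a small adjusted p between the sorts of 1 line at least. That choice favours a pass here, so their number is no result about the pathway. Values are the DU145 log2 difference minus that in PC3. Among TNF-induced and NF-κB genes they were -4.21 for CCL2, -1.98 for CXCL8, -1.51 for CXCL1, -0.89 for IER3, -0.75 for TNFAIP3, -0.47 for NFKBIA, -1.08 for NFKB2, -1.10 for RELB, -0.55 for MAP3K14 and -0.54 for TRAF3.

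Among receptors of the family the values were 1.96 for FAS, 0.58 for TNFRSF12A, -0.72 for TNFRSF21, -2.42 for TNFRSF11B, -0.57 for RELT and -4.64 for TNFRSF6B. Among genes of the TNFR1 complex they were 0.63 for CYLD, 0.64 for TAB2 and -0.84 for TNIP1. Among shedding and mRNA control genes they were 1.02 for ADAM10, 0.81 for TIA1, -0.40 for ZFP36L1, -0.51 for KHSRP, -0.56 for MAPKAPK2, -0.76 for ZC3H12A and -0.48 for ZFP36L2. Among neighbours on 6p21 they were -0.39 for BAG6, -0.56 for MICA and -1.08 for HLA-B. The value of TNFRSF6B rests on 45 and 9 counts in PC3 GFP high and low, with 0.208 ± 0.311 CPM (SD) in PC3 GFP low. That of TNFRSF11B rests on 262 and 24 counts in the same groups.

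The interaction passed in all 22 alternatives for 9 of the 29: CCL2, CXCL1, CXCL8, FAS, NFKB2, RELB, TNFAIP3, TNFRSF21 and TRAF3. For ADAM10, IER3, KHSRP, TNIP1 and ZC3H12A it was lost in 1, without both DU145 GFP high replicates 1 and 2, and for TNFRSF12A in 1, with equal medians. The other 14 were lost in 2 to 15 alternatives.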

How the results depend on the processing

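The replicate number pairs no samples by the labels, and same-numbered libraries deviated from their group means with correlations of 0.0594, 0.196 and 0.145 in PC3 and at -0.0202, 0.0915 and 0.213 in DU145. Every PC3 library correlated best with its own number, as a hint from the data, and in DU145 this did not hold. With the replicate block 4842 genes passed in DU145, 1551 in PC3 and 3321 in the difference between lines, against 3389, 1182 and 1990 without it.

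The DU145 count was 2252 with quantile normalization and 167 without both GFP high replicates 1 and 2, which leaves a lone library assumed to vary like the other groups. The PC3 count was 411 without both GFP low replicates 2 and 3, 2448 with the GC and length trend removed and 2648 with the block added. The count for the difference between lines was 644 and 1181 under the same removals of libraries and 3427 with the GC and length trend removed and the block. Without 1 library the counts ran from 887 to 5582 in DU145 (lowest without GFP high replicate 1, highest without GFP high replicate 3), from 641 to 1490 in PC3 (without PC3 GFP high replicate 1, and DU145 GFP high replicate 3) and from 1135 to 3645 in the difference (without PC3 GFP high replicate 2, and DU145 GFP high replicate 3). Between the lines 6849 to 10801 genes passed, against 9710. Equal medians moved the split of higher and lower calls to 1313 and 2305 in DU145 (1647 and 1742 before), to 509 and 412 in PC3 (522 and 660), and to 626 and 1428 in the difference (885 and 1105), and raised all differences between lines by 0.14 in log2.

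TNF kept its direction in both lines under all alternatives, from -1.56 to -1.27 in DU145 and from 1.19 to 1.39 in PC3. In DU145 it was -1.32 with quantile normalization and -1.27 with the GC and length trend removed, with or without the block, and its difference between lines was -2.59 with quantile normalization. LTB ranged from 1.44 to 1.87 in DU145 and from -0.22 to 0.53 in PC3, and LTA in DU145 from 0.26 (quantile normalization) to 0.75. Of the named pathway genes, 1 of 27 calls in DU145 (TNFSF9) and 7 of 21 in PC3 (CCL2, CXCL1, CXCL8, TNFAIP3, TNFRSF11B, ZC3H12A and RELB) passed in all alternatives that tested them. The DU145 differences of SPPL2A and CHUK reversed, to -0.10 and -0.14, with the GC and length trend removed, with or without the block. The causes were not tested.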

Other observations

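Over the 12 libraries, the 5 genes of 10060 ranked whose log2 levels went most closely with TNF were GOLGA2P7 (Pearson r = 0.995), MYPN (0.991), ITGA5 (0.990), ZNF592 (0.990) and RAPGEF1 (0.989). MYPN, which encodes the sarcomere protein myopalladin, was at 4.45 CPM in DU145 GFP high, 16.0 in DU145 GFP low, 1.36 in PC3 GFP high and 0.451 in PC3 GFP low. ITGA5, the fibronectin receptor subunit α5, was at 136, 201, 75.0 and 51.6 CPM in the same order. Both had the group order of TNF, with DU145 GFP low highest and PC3 GFP low lowest.

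Among the 5 genes most like LTB were HIST1H1C (r = 0.996), CEP250 (0.995), TMCO4 (0.992) and TONSL (0.991). HIST1H1C, a linker histone gene, was at 272 CPM in DU145 GFP high, 123 in DU145 GFP low, 6.97 in PC3 GFP high and 8.61 in PC3 GFP low. These correlations are descriptions over 12 libraries in 4 groups, in which the difference between the lines weighs most, and HIST1H1C is of a family with near-identical copies.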
